A study of Bactrocera dorsalis with 16 samples.

Results

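A set of 146 genes of the oriental fruit fly, Bactrocera dorsalis, had no product name in the deposited table and far more transcript in the fat body than in the ovary of adult females. A gene belonged to the set when its description was empty (75 genes) or read only uncharacterized (71 genes). Its mean over the 8 fat body libraries had to reach 20 FPKM, and its fat body mean had to be at least 4 times its ovary mean at each of 4 ages. FPKM is the number of sequenced fragments scaled to the length of the transcript and the size of the library. They were 146 of the 13759 genes in the table, and 2.51% of the 5823 genes without a product name. Among genes with a product name, 177 of 7767 (2.28%) met the same thresholds. Because measured levels chose the genes, their fat body level and their difference from the ovary are given below as a description without a test. The direction of change with age within the fat body was not used to choose them and is tested, but the level threshold used the same 8 fat body values. In 13 members the mean over the 3 ages other than the highest was under 20 FPKM, so these needed their highest age to reach the level and had to differ between ages. They are counted with the others below, but where one is named its values and differences are a description without a p-value.

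The females were aged 1, 5, 9 or 13 days from eclosion, the emergence of the adult, and each age gave 2 ovary libraries and 2 fat body libraries. All flies came from a laboratory colony kept on a yeast extract and sugar diet, and the labels give no genotype or treatment. The series text calls the libraries of a group biological replicates. The labels do not say how many animals were pooled or which cells adhered to the dissected tissue. Sums of FPKM over the table ran from 290383 to 405928, and the sequencing depth is unknown because only scaled values were used. The 3 germline genes vasa, nanos and oskar summed to 377 to 765 FPKM in ovary libraries and to 10.2 to 29.0 FPKM in fat body libraries. A list of 22 fat body genes (yolk proteins, lipophorins, transferrins and others) summed to 3295 and 3634 FPKM in fat body at day 1 and to 65949 and 67655 FPKM at day 13. Of its 21 tested genes, 8 were higher and 5 lower at day 13 than at day 1, so the sum does not describe each gene. The largest day 13 means were 20201 FPKM in a transferrin (MSTRG.6582) and 19102 FPKM in a yolk protein gene (MSTRG.3415). Phosphoenolpyruvate carboxykinase (MSTRG.1223) went from 1213 to 257 FPKM. The sum of the list in ovary ran from 2616 to 20131 FPKM, and its larval serum proteins had means of at most 1.91 FPKM in fat body. Markers of other cell types were present in the fat body libraries. Muscle genes summed to 4619 to 16638 FPKM there against 313 to 5688 FPKM in ovary. Cuticle genes summed to 1378 to 15098 FPKM against 505 to 1242 FPKM. Gut genes summed to 516 to 3198 FPKM in fat body against 216 to 5203 FPKM in ovary, where they were higher at day 9 and day 13. A maltase 2-like gene (MSTRG.8324) had a mean of 4952 FPKM in ovary at day 13. Hemocyte (blood cell) genes summed to 147 to 245 FPKM in fat body against 59.1 to 188 FPKM in ovary. Neuron genes summed to 28.5 to 73.7 FPKM in fat body against 35.5 to 228 FPKM in ovary. Genes of oenocytes, cells that make cuticular hydrocarbons, summed to 1792 to 2971 FPKM in fat body against 164 to 490 FPKM in ovary, and 2 of 26 tested were higher and 12 lower in fat body at day 13 than at day 1.

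In insects the fat body does the work of both liver and adipose tissue. It stores lipid and glycogen, and it secretes most proteins of the hemolymph, including yolk proteins in females, lipid carriers and immune peptides. Annotation names a gene by its likeness to a described protein, so a gene without a name can be as abundant as any named one.

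Transcript models gave a first view of what these genes are. The deposited table uses gene identifiers that begin MSTRG, and plain numbers for other genes. Identifiers of assembled transcripts begin MSTRG as well. Of the 75 members without a description, 62 (82.7%) held only assembled transcripts and no annotated model. Among all 3310 genes without a description the number was 1612 (48.7%). The 71 uncharacterized members all had an annotated model, and 61 of their descriptions named a B. dorsalis locus. The others named Bactrocera latifrons in 4 cases, and Bactrocera oleae, Bactrocera cucurbitae and Rhagoletis zephyria in 2 each. These 61 members named 59 different loci, of which 55 were found in the RefSeq gene table of the assembly ASM2337382v1, where all 55 were protein coding and 0 had a symbol other than the locus name. Both members of 3 pairs (MSTRG.4101 with MSTRG.4102, MSTRG.6239 with MSTRG.6240, and MSTRG.1631 with MSTRG.1632) named the same locus, so reads of 1 gene may be split between them. For the last pair the locus is one of Rhagoletis zephyria. Terms of the Gene Ontology beyond the root terms were attached to 29 members, and 17 of these carried an extracellular term.

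The set reached high levels. The median fat body mean was 98.1 FPKM, the lowest 20.4 and the highest 6918 FPKM, with 72 members at 100 FPKM or more and 13 at 1000 FPKM or more. Together the 146 genes held 19.5% and 17.2% of all FPKM in the fat body libraries of day 1, 13.3% and 13.0% at day 5, 13.5% and 13.8% at day 9, and 11.6% and 13.7% at day 13. Their share in ovary libraries was between 0.147% and 1.03%. The 177 named genes of the same thresholds held 8.92% to 11.5% of the fat body sums. In a bulk tissue sample, fewer cells of a type and less RNA per cell cannot be told apart.

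Just 2 genes made up much of the day 1 share. MSTRG.9930 was measured in fat body at 19116 and 15832 FPKM at day 1, 9280.1 and 7754 at day 5, 1276 and 1402 at day 9 and 637 and 45.7 at day 13. Each age lay below the one before without overlap, and the 2 libraries of day 13 differed more than those of any other age. In ovary MSTRG.9930 lay at 88.7 and 82.2 FPKM at day 1, 79.9 and 40.7 at day 5, 31.9 and 32.1 at day 9 and 38.8 and 60.4 at day 13. The neighbouring identifier MSTRG.9929 stood in fat body at 26588 and 17248 FPKM at day 1, 1282 and 857 at day 5, 5726 and 187 at day 9 and 1641 and 5.19 at day 13. Both day 1 libraries of MSTRG.9929 lay above all later ones, and its libraries of day 9 and day 13 disagreed with each other more than most ages did. In ovary the values of MSTRG.9929 were 111 and 4.23 FPKM at day 1, 109 and 2.03 at day 5, 50.7 and 42.1 at day 9 and 51.2 and 82.8 at day 13, so its lower fat body library at day 13 lay below every ovary library of that age. Together both genes took 11.5% and 9.13% of all FPKM at day 1, and 0.600% and 0.0131% at day 13. From day 1 to day 13 MSTRG.9930 fell, with a log2 fold change of -6.66 ± 0.89, adjusted p = 0.000332. This and all fold changes below are from limma on the log2(FPKM + 1) scale, given with their SE and with p-values adjusted by Benjamini and Hochberg over all genes tested. MSTRG.9929 gave -7.73 ± 2.61, adjusted p = 0.0481, a call that was lost without fat body day 13 replicate 2 (adjusted p = 0.357) and under 13 other alternatives, with a range of 0.00793 to 0.357 over all 25.

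A second type among the abundant members rose with age. MSTRG.4102 was measured at 755 and 1032 FPKM at day 1, 1342 and 1600.4 at day 5, 4022 and 3676 at day 9 and 4589.8 and 4742 at day 13. Every library of day 9 and day 13 lay above every earlier one, and the change from day 1 to day 13 was 2.40 ± 0.24, adjusted p = 4.83e-05. MSTRG.4316 gave 539.7 and 600.1 FPKM at day 1, 667 and 621 at day 5, 2218 and 3467 at day 9 and 1691 and 2194 at day 13, a step between day 5 and day 9 of 2.11 ± 0.33, adjusted p = 0.00233. MSTRG.1631, one of the genes whose locus name is shared, lay at 3647 and 2418 FPKM at day 1, 2457 and 2825 at day 5, 3454 and 4643 at day 9 and 5301 and 8040.4 at day 13. Both of its day 13 libraries were the highest of the 8, and its change from day 1 was 1.14 ± 0.32, adjusted p = 0.0206. That call was lost without fat body day 1 replicate 2, without day 13 replicate 2 and after quantile normalization, with adjusted p from 0.00574 to 0.673 over 25 alternatives. Its partner MSTRG.1632 rose from 89.1 and 118 FPKM at day 1 to 975 and 1303 FPKM at day 13 (3.45 ± 0.32, adjusted p = 2.73e-05).

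Other abundant members varied little or peaked early. MSTRG.2435, whose terms describe a heme-binding oxidoreductase of the cytochrome P450 kind with a part in lipid metabolism, was measured at 3250.0 and 2856 FPKM at day 1, 2979.7 and 3086 at day 5, 2678 and 2879.8 at day 9 and 3215 and 3423 at day 13. Day 1 overlapped with every other age and the later 3 ages did not overlap with each other, but no comparison of ages passed the test. MSTRG.10889 lay at 2836 and 1640.4 FPKM at day 1, 2065 and 1610.2 at day 5, 1123 and 1853 at day 9 and 1541 and 1498 at day 13, and no comparison passed for it. MSTRG.10835 lay at 1245 and 867 FPKM at day 1, 1512 and 1666 at day 5, 1393 and 1533 at day 9 and 1781 and 1266 at day 13, with both day 1 libraries below the lowest later one, overlap among the 3 later ages and no call. MSTRG.1124 peaked at day 5, with 765 and 1089 FPKM at day 1, 3755 and 3199 at day 5, 1239 and 1212 at day 9 and 332 and 111 at day 13. No 2 ages overlapped, and the rise to day 5 (1.92 ± 0.43, adjusted p = 0.0145) and the fall from day 9 to day 13 (-2.67 ± 0.43, adjusted p = 0.00568) were called. The rise was not called without fat body day 1 replicate 1 or either day 5 library, and neither was called with the fat body libraries alone, with adjusted p from 0.00183 to 0.0984 for the rise and from 0.000361 to 0.0515 for the fall over 25 alternatives. MSTRG.3294 stood at 1133 and 1994 FPKM at day 1, 1203 and 1762 at day 5, 2319 and 2826 at day 9 and 46.1 and 2211 at day 13, so that the 2 libraries of day 13 differed by far more than the ages did.

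**Figure D1:**
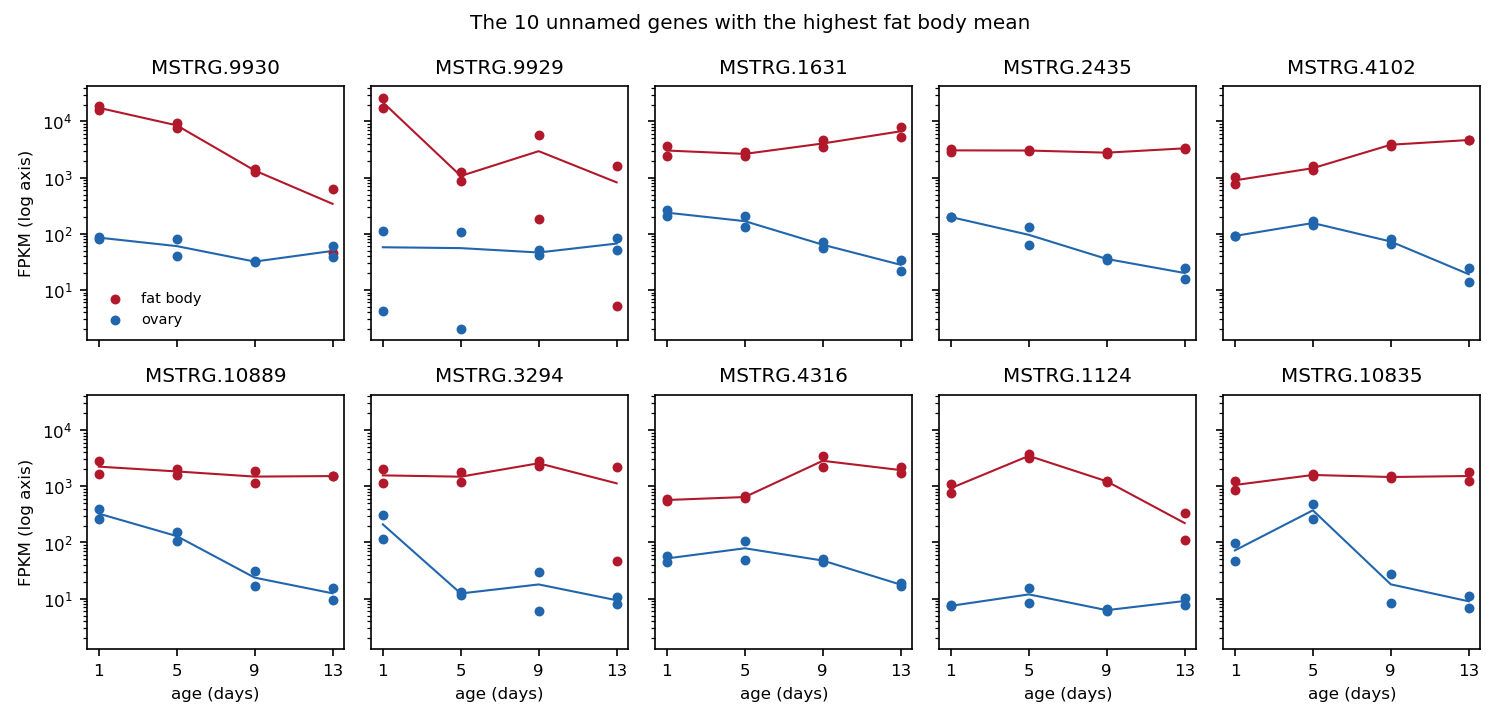
FPKM of the 10 unnamed genes with the highest fat body mean (log axis) against age in days; points are the 2 libraries of each tissue and age, lines join their means, red is fat body and blue is ovary. MSTRG.9930 fell from 19116 and 15832 FPKM at day 1 to 637 and 45.7 FPKM at day 13 in fat body, MSTRG.4102 rose to 4589.8 and 4742 FPKM, and MSTRG.2435 stayed between 2678 and 3423 FPKM.

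The age profiles were of every kind. The highest fat body mean fell at day 1 in 40 members, at day 5 in 25, at day 9 in 41 and at day 13 in 40. The named genes of the same thresholds gave 54, 37, 36 and 50. A change over the 4 ages was called in 98 of 146 members (67.1%) by limma's F test, in which 34.4% of all 10213 genes tested were called. The share was 62.7% among the 177 named genes and 55.0% among all 2096 tested genes with a fat body mean of at least 20 FPKM. Of the members, 82 were called in at least 1 step between neighbouring ages, and 41 in no comparison at all. The most frequent pattern was no call in any step (64 members). Among patterns with a call, a rise from day 5 to day 9 alone came first (21 members), followed by a rise from day 1 to day 5 alone (13 members). Patterns were counted among the members alone, so they are not shown to be particular to them. A fall in both later steps with no call in the first was found in 7 members, among them MSTRG.3766, which needed day 5 to reach the level. MSTRG.10411 was the 1 member called higher in all 3 steps. MSTRG.9931 and MSTRG.1950 were called lower in all 3, with the last call of MSTRG.9931 lost under 2 of 25 alternatives. MSTRG.1950 needed day 1 to reach the level and so had to fall from that age, and its 3 calls are a description only. Without the 13 members that needed their highest age to reach the level, 87 of 133 were called by the F test.

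**Figure D2:**
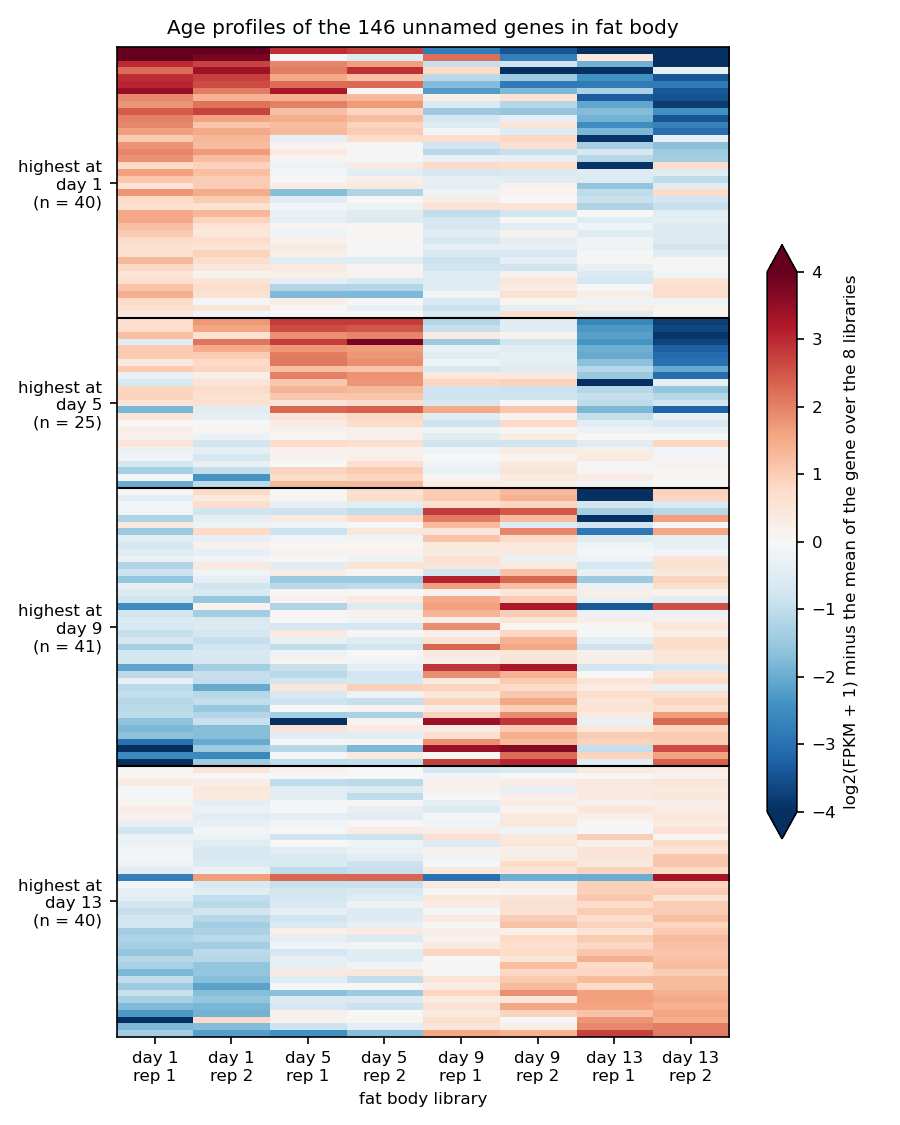
Heat map of the 146 unnamed genes (rows) in the 8 fat body libraries (columns, 2 per age), coloured by log2(FPKM + 1) minus the mean of the gene over the 8 libraries, with rows grouped by the age of the highest mean and ordered within a group by the day 13 minus day 1 difference. The groups hold 40, 25, 41 and 40 genes, and single dark cells in day 13 replicate 1 or 2 mark genes whose 2 libraries differ.

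In the first step, from day 1 to day 5, 25 members rose (17.1%) and 14 fell (9.59%), against 3.8% of all genes tested called higher and 10.7% called lower. Among tested genes with a fat body mean of at least 20 FPKM, 9.69% were higher and 15.0% lower. Of the 133 members that did not need their highest age to reach the level, 23 rose and 10 fell. The named genes of the same thresholds gave 27 and 21 of 177. The median log2 fold change was 0.17 over the members and -0.11 over all genes tested. MSTRG.1125 rose most, from 51.2 and 138 FPKM to 917 and 971 FPKM (3.47 ± 0.55, adjusted p = 0.00288). MSTRG.651 went from 39.5 and 76.5 FPKM to 397 and 390.1 FPKM (2.82 ± 0.30, adjusted p = 0.000317). MSTRG.10127, which carries the term of a serine-type endopeptidase, a protein-cutting enzyme, went from 12.5 and 25.2 FPKM to 99.4 and 114 FPKM (2.51 ± 0.32, adjusted p = 0.000836). In each of these genes both day 5 libraries lay above both day 1 libraries.

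MSTRG.7808, MSTRG.2520 and MSTRG.1632 rose as well, by 2.73 ± 0.55, 2.26 ± 0.42 and 2.19 ± 0.32 on the log2 scale. Among the largest falls, MSTRG.1182 went from 177 and 96.2 to 18.04 and 17.6 FPKM (-2.80 ± 0.40, adjusted p = 0.00162). MSTRG.5144, which needed day 1 to reach the level, was at 77.3 and 63.2 FPKM at day 1 and 6.05 and 9.01 FPKM at day 5 (-3.08 ± 0.46). MSTRG.4554, MSTRG.9414, MSTRG.3493 and MSTRG.1820 fell, with log2 fold changes between -1.81 and -1.63. The call of MSTRG.7808 was lost without fat body day 1 replicate 1 or day 5 replicate 2 and in the fit to fat body libraries alone, and that of MSTRG.2520 without day 5 replicate 2. The balance depended on single libraries. The members that rose and fell numbered 12 and 10 without fat body day 1 replicate 1, 11 and 11 without day 5 replicate 1 and 6 and 11 without day 5 replicate 2, so that the last had more falls than rises. They were 16 and 12 with a pseudocount of 0.1 and 15 and 15 with the fat body libraries alone. Of the calls, 6 of the 25 rises and 10 of the 14 falls were made under every alternative other than the 2-fold threshold. Muscle genes moved in the same step, with 9 of 20 tested called higher and 1 lower, and their part in the rise of the members was not tested.

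The step from day 5 to day 9 held the most calls. In it 35 members rose (24.0%) and 21 fell (14.4%), against 5.53% and 5.6% of all genes tested. Among tested genes with a fat body mean of at least 20 FPKM, 12.0% were higher and 7.78% lower. Of the 133 members that did not need their highest age to reach the level, 33 rose and 15 fell. The named genes of the same thresholds gave 27 and 21 of 177, and the medians were 0.29 over the members and -0.05 over all genes. MSTRG.8847 rose from 27.8 and 27.4 FPKM to 677 and 395 FPKM (4.18 ± 0.67, adjusted p = 0.00277). A pair of genes near the level threshold was high at day 9 alone, and both needed that age to pass. MSTRG.804 was measured at 1.04 and 2.47 FPKM at day 1, 3.83 and 5.98 at day 5, 63.2 and 83.8 at day 9 and 4.24 and 4.66 at day 13. MSTRG.10875 was measured at 8.61 and 5.19 FPKM at day 1, 5.08 and 4.30 at day 5, 73.3 and 59.2 at day 9 and 3.35 and 3.98 at day 13. In both genes the day 9 libraries stood above all 6 others, with log2 differences from day 5 of 3.67 ± 0.27 and 3.56 ± 0.21.

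MSTRG.8723 and MSTRG.8724, which follow each other in the table's numbering, rose together. MSTRG.8723 lay at 12.4 and 103 FPKM at day 1, 136 and 143 at day 5, 1842 and 2283 at day 9 and 207 and 1464 at day 13. MSTRG.8724 lay at 5.03 and 48.7 FPKM at day 1, 60.9 and 37.5 at day 5, 1466 and 1677 at day 9 and 67.1 and 805 at day 13. Both peaked at day 9 and differed widely between the libraries of day 1 and of day 13. Their steps from day 5 were 3.87 ± 0.96, adjusted p = 0.0279 and 5.01 ± 1.08, adjusted p = 0.014, and both calls were lost without any 1 of the 4 libraries compared and with the fat body libraries alone. MSTRG.10578 gave a larger value (6.06 ± 1.63, adjusted p = 0.0393), but 1 of its day 5 libraries was listed at 0 and the other at 65.3 FPKM, and the adjusted p was 0.224 without the former, with a range of 0.00212 to 0.224 over 25 alternatives, of which 14 lost the call.

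Among the falls from day 5 to day 9, MSTRG.9931 was the most complete. It was measured in fat body at 377 and 375 FPKM at day 1, 139 and 121 at day 5, 1.61 and 0.642 at day 9 and 0 and 0 at day 13, and it was listed at 0 in 7 of 8 ovary libraries and at 0.0320 FPKM in the other. At day 13 it was listed at 0 in both tissues, so the ratio threshold held there with 0 on both sides, and no fold is given against that age. Its fall from day 5 to day 9 was -5.98 ± 0.19, adjusted p = 2.19e-07. The ovary libraries at or near 0 entered its estimate of spread, so this SE and p-value may be too small. The call was lost under 0 of 25 alternatives, among them the fit to the fat body libraries alone. MSTRG.10790, which needed its highest age to reach the level, followed the same course, with 57.6 and 42.5 FPKM at day 1, 32.6 and 33.5 at day 5, 1.14 and 0 at day 9 and 0.0283 and 0 at day 13, and was listed at 0 in every ovary library, where any fat body level meets the ratio threshold. MSTRG.8920, another that needed its highest age, was also at 0 in every ovary library and lay in fat body at 116 and 42.7 FPKM at day 1, 98.7 and 8.89 at day 5, 1.23 and 1.996 at day 9 and 3.40 and 0 at day 13. Its difference of day 9 from day 5 was -3.60 ± 0.95. MSTRG.2127 and MSTRG.168 were highest at day 5 and fell in this step, with log2 fold changes of -4.38 ± 0.73 and -3.59 ± 0.45. MSTRG.3766, which needed day 5 to reach the level, gave -3.26 ± 0.42. The number of members that rose was 15 without fat body day 5 replicate 1, 20 without day 5 replicate 2 and 17, as many as fell, without day 9 replicate 2.

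From day 9 to day 13 the calls went mostly down. In this last step 3 members rose (2.05%) and 25 fell (17.1%), against 1.73% and 5.42% of all genes tested. Among tested genes with a fat body mean of at least 20 FPKM, 3.39% were higher and 10.4% lower. Of the 133 members that did not need their highest age to reach the level, 3 rose and 21 fell. The named genes of the same thresholds gave 10 and 25 of 177. Of the called members 10.7% were higher, a share that was 20.8% (5 higher and 19 lower) after quantile normalization. MSTRG.10411 rose in each step, with 7.27 and 7.61 FPKM at day 1, 15.02 and 21.4 at day 5, 39.6 and 32.2 at day 9 and 107 and 118 at day 13. No 2 ages overlapped in this gene, and its last step was 1.63 ± 0.21, adjusted p = 0.00247. MSTRG.10886 (1.06 ± 0.25, adjusted p = 0.0291) and MSTRG.10412 (0.89 ± 0.20, adjusted p = 0.024) were the others that rose. Muscle and cuticle markers went down in the same step, with 7 of 20 and 8 of 32 tested genes lower and 0 higher, and their part in the falls of the members was not tested. Without fat body day 9 replicate 1, day 13 replicate 1 or day 13 replicate 2, only the rise of MSTRG.10411 was called.

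The largest falls of the last step were those of MSTRG.10875, MSTRG.1125, MSTRG.201, MSTRG.804, MSTRG.4737 and MSTRG.8847, among which MSTRG.10875 and MSTRG.804 had to fall from the day 9 level through which they passed. MSTRG.201 was measured at 880.5 and 607 FPKM at day 1, 618 and 566 at day 5, 272 and 344 at day 9 and 22.3 and 20 at day 13, and its day 13 libraries lay far below the other 6 (-3.79 ± 0.28, adjusted p = 0.000113). MSTRG.1125 dropped back from 534 and 399 FPKM to 52.7 and 18.9 FPKM (-3.82 ± 0.55, adjusted p = 0.00358). The value of MSTRG.8847 (-2.98 ± 0.67, adjusted p = 0.0239) missed the threshold without fat body day 9 replicate 1, day 9 replicate 2 or day 13 replicate 1. The number of members that fell was 14 without day 9 replicate 1 and 10 with the fat body libraries alone. The median log2 fold change was -0.14 over the members and -0.07 over all genes as deposited, and over the members it was -0.00088 with median-of-ratios scaling and 0.04 after quantile normalization.

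Over the whole period, day 13 against day 1, 49 members were higher (33.6%) and 44 lower (30.1%), against 6.35% and 23.4% of all genes tested. Among tested genes with a fat body mean of at least 20 FPKM, 15.9% were higher and 31.4% lower, so the share of members lower was near that of genes at this level. The named genes of the same thresholds gave 43 and 50 of 177. The median was 0.31 over the members, -0.06 over the named genes and -0.24 over all genes. The median of all genes moved by 0.27 with median-of-ratios scaling and by 0.29 with quantile normalization, so changes are best read against it. The members higher and lower were 64 and 34 under the former and 51 and 36 under the latter. Shares of all genes called are given for the values as deposited alone, here and elsewhere, so they are no background for these counts. Under the 2 scalings the medians were 0.77 and 0.40 over the members, 0.40 and 0.09 over the named genes and 0.04 and 0.05 over all genes. Without fat body day 13 replicate 1 they were 46 and 37, and without day 13 replicate 2 they were 37 and 41. MSTRG.2056 rose most, with 52.7 and 29.5 FPKM at day 1, 25.4 and 42.5 at day 5, 410.4 and 375 at day 9 and 939 and 599 at day 13. Its 4 libraries of day 9 and day 13 lay above all 4 earlier ones (4.21 ± 0.37, adjusted p = 2.14e-05). MSTRG.10411, MSTRG.7808 and MSTRG.10127 rose by 3.75 ± 0.21, 3.81 ± 0.55 and 3.46 ± 0.32. MSTRG.8723 and MSTRG.8724 were called too (3.89 ± 0.96, adjusted p = 0.0115 and 3.76 ± 1.08, adjusted p = 0.0247), but not without fat body day 1 replicate 1 or day 13 replicate 2.

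Among the genes lower at day 13 than at day 1, MSTRG.1950, which needed day 1 to reach the level, was measured at 135 and 118 FPKM at day 1, 49.5 and 38.6 at day 5, 7.32 and 5.63 at day 9 and 2.33 and 0.645 at day 13. Each age lay below the one before without overlap (-5.77 ± 0.29). MSTRG.201 fell as well (-5.05 ± 0.28, adjusted p = 1.27e-06), and MSTRG.10790 and MSTRG.8920 gave -5.64 ± 0.29 and -5.09 ± 0.95. Without the 13 members that needed their highest age to reach the level, 46 of 133 were higher and 36 lower.

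**Figure D3:**
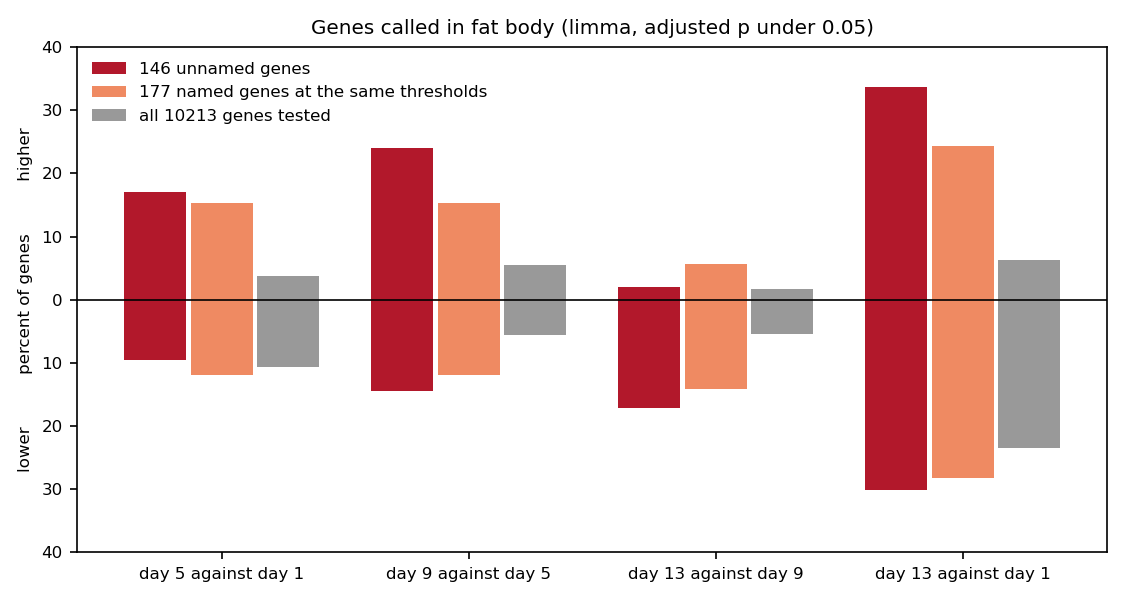
Percent of genes called higher (bars upwards) and lower (bars downwards) in 4 comparisons of ages in fat body, for the 146 unnamed genes, the 177 named genes of the same thresholds and all 10213 genes tested. Bars start at 0. In day 13 against day 1 the unnamed genes reached 33.6% higher and 30.1% lower, against 6.35% and 23.4% of all genes. Tested genes with a fat body mean of at least 20 FPKM, which are not drawn, gave 15.9% and 31.4%.

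A few members varied little. Beside MSTRG.2435, the steadiest uncalled genes were MSTRG.744, MSTRG.1525 and MSTRG.10422. MSTRG.744 was measured at 192 and 169.9 FPKM at day 1, 183 and 184 at day 5, 147 and 168 at day 9 and 139 and 136 at day 13. MSTRG.1525 was measured at 77.8 and 59.5 FPKM at day 1, 73.8 and 80.7 at day 5, 51.6 and 86 at day 9 and 69.3 and 65.2 at day 13. MSTRG.10422 was measured at 66.7 and 46.5 FPKM at day 1, 58.4 and 63.4 at day 5, 48 and 75.4 at day 9 and 70.2 and 70.7 at day 13. The SD over the 8 libraries of log2(FPKM + 1) was between 0.116 and 0.256 in these 4 genes. Of the 6 pairs of ages, 5 overlapped in MSTRG.1525, 4 in MSTRG.10422, 3 in MSTRG.2435 and 1, day 1 with day 5, in MSTRG.744.

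Most members with terms for chitin or cuticle fell late. Chitin is the polysaccharide of the insect cuticle and of the peritrophic membrane that lines the gut. Of 7 members with such a term, all 7 passed the F test, 5 fell from day 5 to day 9, 6 from day 9 to day 13 and 6 between day 1 and day 13. Of all genes tested, 34.4% passed the F test and 5.6%, 5.42% and 23.4% were lower in these comparisons. For tested genes with a fat body mean of at least 20 FPKM the shares were 55.0%, 7.78%, 10.4% and 31.4%. Under median-of-ratios scaling 4 fell from day 5 to day 9 and 6 from day 9 to day 13. After quantile normalization 4 fell in each of these steps. MSTRG.10945, with a term for the peritrophic membrane, was measured at 739 and 988 FPKM at day 1, 891 and 711 at day 5, 145 and 97.8 at day 9 and 50.8 and 14.8 at day 13. Its day 9 libraries lay below all earlier ones and its day 13 libraries lay lower again (-4.90 ± 0.48, adjusted p = 4.1e-05). MSTRG.5288, with the same term, gave 425 and 316 FPKM at day 1, 284 and 252 at day 5, 66.1 and 78.7 at day 9 and 27.2 and 8.61 at day 13 (-4.48 ± 0.43, adjusted p = 3.41e-05). The third with that term, MSTRG.7612, fell as well (-2.54 ± 0.24).

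MSTRG.4737, whose term is larval cuticle structure, was measured at 50.9 and 33.7 FPKM at day 1, 78.8 and 86.2 at day 5, 27.4 and 24.1 at day 9 and 4.04 and 0.522 at day 13 (-3.94 ± 0.44, adjusted p = 9.27e-05). MSTRG.5150, with a chitin-binding term, and MSTRG.6650, with a cuticle term, fell with log2 fold changes of -3.88 ± 0.35 and -4.04 ± 0.43. The exception was MSTRG.11053, which carries chitin-binding, scavenger receptor and endopeptidase terms and stayed between 125 and 223 FPKM without a call in any single comparison. Without fat body day 13 replicate 2, 3 members of the group fell from day 9 to day 13, and 6 were still lower at day 13 than at day 1. Under median-of-ratios scaling MSTRG.11053 was the 1 member of the group called higher at day 13 than at day 1, with the other 6 lower. The named cuticle genes moved in the same direction. Their list had 2 of 32 tested genes higher and 25 lower at day 13 against day 1, and its summed FPKM went from 15098 and 12582 at day 1 to 1650.0 and 1378 at day 13. The part of cuticle-bearing tissue in the fall of these members was not tested.

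**Figure D4:**
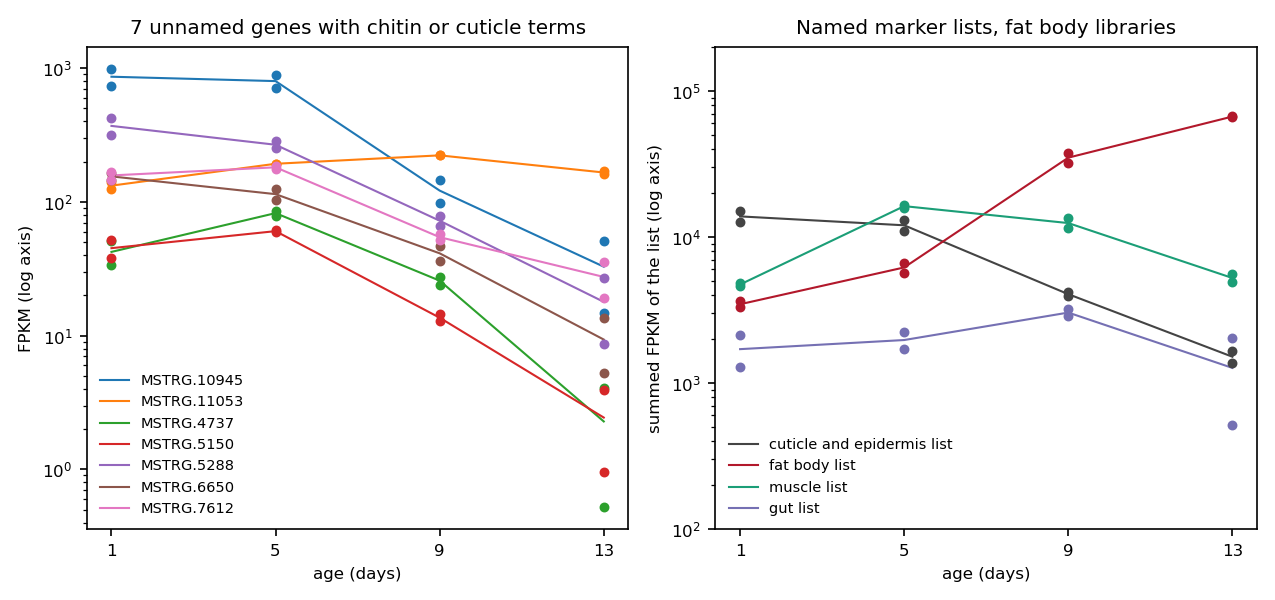
Left, FPKM (log axis) in fat body against age in days for the 7 unnamed genes with chitin or cuticle terms; right, summed FPKM (log axis) of 4 lists of named marker genes in the same libraries. Points are the 2 libraries of each age and lines join their means. Of the 7 genes 6 fell, as did the sum of the cuticle list, from 15098 and 12582 FPKM at day 1 to 1650.0 and 1378 FPKM at day 13. The sum of the fat body list rose, with 8 of its 21 tested genes higher and 5 lower at day 13 than at day 1.

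Other members with terms were few and mixed. Of 17 with an extracellular term, 2 were higher and 10 lower at day 13 than at day 1. Of all genes tested 6.35% and 23.4% were, and of tested genes with a fat body mean of at least 20 FPKM 15.9% and 31.4%. Of the 10, 5 also belong to the chitin or cuticle group, and MSTRG.5166 needed its highest age to reach the level. Under median-of-ratios scaling 5 of the 17 were higher and 8 lower, and after quantile normalization 3 and 9. MSTRG.5166, with terms for Toll binding and growth factor activity, as of the ligands of the Toll receptor, was at 56.3 and 69.6 FPKM at day 1, which it needed to reach the level, and at 2.25 and 1.02 FPKM at day 13 (-4.63 ± 0.23). MSTRG.6239, one of the genes with a shared locus and with terms for feeding behaviour and starvation, fell from 395 and 398 FPKM at day 5 to 104 and 104 FPKM at day 9 (-1.92 ± 0.33, adjusted p = 0.00415). Its partner MSTRG.6240 was not called in that step (0.43 ± 0.54, adjusted p = 0.728). MSTRG.2704, with terms for hemolymph coagulation and glutathione synthesis, fell from day 1 to day 13 (-1.72 ± 0.26).

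MSTRG.493, with terms for lipid transport in the hemolymph, rose from 45.5 and 49.1 FPKM to 90.5 and 106 FPKM (1.03 ± 0.19, adjusted p = 0.00236). MSTRG.10012, with terms of a peptidoglycan-cutting amidase of the antibacterial response, rose from 32.5 and 28.5 FPKM at day 5 to 62.7 and 109 FPKM at day 9 (1.41 ± 0.33, adjusted p = 0.0216). This call was lost without either day 5 library or day 9 replicate 2 of fat body and with the fat body libraries alone, with adjusted p from 0.00551 to 0.163 over 25 alternatives. MSTRG.6175, with a term for the inhibition of serine endopeptidases, was measured at 70.4 and 76.4 FPKM at day 1, 68.9 and 85.8 at day 5, 536 and 385 at day 9 and 147 and 217 at day 13. It was high at day 9 (2.55 ± 0.27, adjusted p = 0.000264) and stayed above its early level at day 13 (1.27 ± 0.27, adjusted p = 0.00522). Of 3 members with terms of the P450 kind, MSTRG.2435 and MSTRG.7414 were not called in any comparison. MSTRG.2248 was at 17.6 and 13.5 FPKM at day 1 and, at the highest age, which it needed to reach the level, at 27.5 and 45.1 FPKM at day 13 (1.14 ± 0.30).

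Some members carried identifiers that follow each other, in 21 runs with 45 members. Runs were counted and correlated among the members alone, so they are not shown to be particular to them. Over the 8 fat body libraries the Pearson r of log2(FPKM + 1) in the 24 pairs of successive identifiers had a median of 0.73, against 0.05 over all 10585 pairs of members. This is a description over libraries that all pairs share, and 3 of the 24 pairs share a locus name. The pairs ran from -0.71 (MSTRG.4554 with MSTRG.4555) to 0.99 (MSTRG.8723 with MSTRG.8724). The run from MSTRG.9929 to MSTRG.9931 held the most abundant member and the gene that fell to 0. MSTRG.1088, MSTRG.1089 and MSTRG.1090 rose together (2.71 ± 0.36, 1.91 ± 0.24 and 1.71 ± 0.26 at day 13 against day 1), whereas the next identifier, MSTRG.1091, was lower (-1.22 ± 0.30, adjusted p = 0.0119). The call of MSTRG.1091 was lost without fat body day 1 replicate 1 or day 13 replicate 2, with median-of-ratios scaling and with a pseudocount of 0.1, with adjusted p from 0.00409 to 0.179 over 25 alternatives. In the RefSeq table, 8 pairs of members lay next to each other or with 1 protein-coding gene between them, and their r ran from -0.75 to 0.98.

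The 2 fat body libraries of day 13 disagreed for many members. Between them 38 of 146 members (26.0%) differed by more than 2-fold, against 19.8% of the named genes of the same thresholds and 6.17% of all genes tested. At the other ages the number was 5 to 16. At day 13, 22 members were higher in replicate 2 and 16 in replicate 1. MSTRG.3294 was at 46.1 FPKM in replicate 1 and 2211 in replicate 2, MSTRG.4164 at 12.1 and 966, and MSTRG.7667 at 1.52 and 157. MSTRG.9929 went the other way, with 1641 FPKM in replicate 1 and 5.19 in replicate 2.

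Marker genes of the gut differed between the same libraries. The gut list (trypsins, maltases, amylases and peritrophins) summed to 516 FPKM in replicate 1 and 2023 in replicate 2 at day 13, and 10 of its 28 tested genes were more than 2-fold higher in replicate 2 and 0 in replicate 1. At day 1 the list summed to 1282 and 2131 FPKM, and 13 of the 16 members over 2-fold apart were higher in replicate 2, as were 624 of 830 of all genes tested and 14 of 17 of the named genes of the same thresholds. There were 9 members over 2-fold higher in replicate 2 at both ages, among them MSTRG.2058, MSTRG.7666, MSTRG.7667, MSTRG.8723 and MSTRG.8724. This was counted among the members alone, so it is not shown to be particular to them. At day 13, 375 of the 630 tested genes over 2-fold apart were higher in replicate 2. MSTRG.2058 was measured at 13.1 and 294 FPKM at day 1, 456 and 464 at day 5, 10.9 and 23.3 at day 9 and 22.7 and 940.1 at day 13. At day 13 the cuticle list had 6 of 32 genes more than 2-fold higher in replicate 1 and 1 in replicate 2. In the ovary libraries of day 13 the gut list summed to more than in fat body, 5203 and 4957 FPKM, with a mean of 4952 FPKM for the maltase 2-like MSTRG.8324. The part of these other tissues in the values of the members was not tested.

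**Figure D5:**
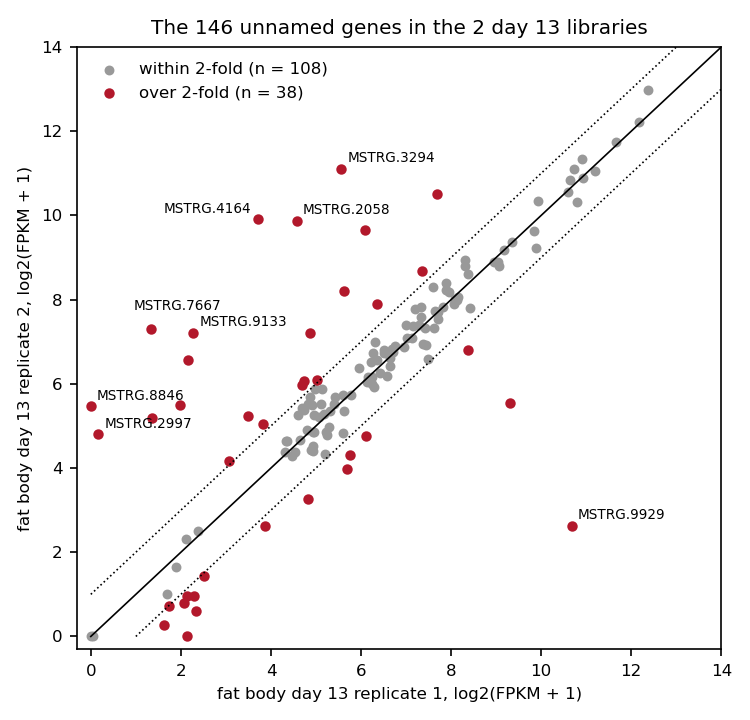
log2(FPKM + 1) of the 146 unnamed genes in fat body day 13 replicate 1 (x axis) and replicate 2 (y axis); the solid line marks equal values, dotted lines a 2-fold difference, and the 8 genes with the largest difference are named. The 38 red genes lie outside the dotted lines, 22 of them above and 16 below.

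In the ovary the members were low and lower still with age. The median ovary level over the members was 5.73 FPKM at day 1, 4.50 at day 5, 1.97 at day 9 and 0.981 at day 13, while the fat body medians at the same ages were 68.7, 78.1, 99.8 and 79.4 FPKM. Members held 1.03% and 0.942% of ovary FPKM at day 1 and 0.147% and 0.209% at day 13. The 177 named genes of the same thresholds went alike, from 0.908% and 0.919% to 0.153% and 0.196%, so the fall was not particular to the members. The thresholds used the ovary values, and the counts that follow cover the members alone. The ovary mean was lower at day 13 than at day 1 in 134 members, and in 78 of these the fat body mean was higher. MSTRG.1631 is an example, with 265 and 210.3 FPKM at day 1, 203 and 132 at day 5, 71.3 and 56.6 at day 9 and 22.1 and 34.01 at day 13 in ovary, where it fell while its fat body level rose. In 111 members (76.0%) every fat body library lay above every ovary library, as in 7.05% of all genes tested, and nothing is read from this because the thresholds used the same difference. At the thresholds, the genes just inside the level were MSTRG.10875, MSTRG.7194 and MSTRG.10790 at 20.4, 20.6 and 20.9 FPKM, and those just outside were MSTRG.355, MSTRG.9864 and MSTRG.4504 at 19.9, 19.1 and 18.9 FPKM. The lowest ratio over the 4 ages was 4.001 in MSTRG.3493, 4.14 in MSTRG.201 and 4.16 in MSTRG.9414, and it was 3.94, 3.94 and 3.93 in MSTRG.39, MSTRG.8664 and MSTRG.8721 outside.

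For each of the 10 most abundant members the named gene with the most alike profile was found among 1514 named genes of at least 20 FPKM in fat body, by Pearson r of log2(FPKM + 1) over the 8 fat body libraries. These are descriptions over libraries that all genes share. MSTRG.4102 was closest to a CD109 antigen (MSTRG.9915, r = 0.99) and MSTRG.9930 to a tyrosine-protein phosphatase non-receptor type 23 (MSTRG.2377, r = 0.99). MSTRG.3294, which was low in day 13 replicate 1, was closest to a maltase A1-like gene of the gut list (MSTRG.7419, r = 0.99), whose mean fell from 1327 FPKM at day 9 to 398 FPKM at day 13. MSTRG.1124 was closest to a pyruvate kinase-like gene (MSTRG.7033, r = 0.96), MSTRG.4316 to a glutactin-like gene (MSTRG.5760, r = 0.98) and MSTRG.1631 to a putative alpha-L-fucosidase (MSTRG.9018, r = 0.97). For the others the closest were a hydroxypyruvate isomerase (MSTRG.9929, r = 0.96), a small nuclear ribonucleoprotein F (MSTRG.2435, r = 0.97), an eIF3 subunit K (MSTRG.10889, r = 0.96) and a kunitz-type protease inhibitor (MSTRG.10835, r = 0.88).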

How the data were processed

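Levels of 13759 genes in 16 libraries were deposited by the authors as FPKM, that is, fragments relative to transcript length and library size. Bowtie 0.12.2, HISAT2 2.0 and StringTie 1.3.0 are listed, without steps, per the submitters' processing notes, which give mm8 as build although mm8 is a mouse genome. The fly assembly is not given in the sources used here. Product names and Gene Ontology (GO) terms are the deposited table's. Read counts were not used, so depth is unknown and no counting interval is given.

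Values were analysed as log2(FPKM + 1) without further scaling. Genes whose mean reached 1 FPKM in 1 group or more (10213) were fitted with limma 3.58.1 in R 4.3.3, with variance trend and robust moderation and 1 coefficient per tissue and age, all 16 libraries sharing 1 estimate of spread. For a gene at or near 0 in ovary, those libraries add little spread, so its SE in fat body can be too small. Benjamini-Hochberg adjusted p under 0.05 over all genes tested was called. The fit was tested on simulated data. Tables and plots used Python 3.11.15, pandas 2.3.3, numpy 2.4.6 and matplotlib 3.10.9.

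The members and lists were chosen with earlier results of these data known, and the patterns of the fat body and gut lists were corrected after product names were seen. Genes named were the 10 highest by fat body mean and their most alike named genes, the 6 largest called changes without overlap per comparison and direction, the 4 steadiest uncalled genes, and the 3 on each side of each threshold. Genes named under a GO term, a run of identifiers or a spread between libraries were chosen after their values were seen. The alternatives were 2 other scalings, a pseudocount of 0.1, no filter or one at 5 FPKM, fat body libraries alone, no moderation, a replicate block, a 2-fold threshold, other thresholds for membership, and each library left out.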

Additional observations from a re-analysis of the deposited data

How the results depend on the processing

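Of 45 changes named by the rule, 33 were called under every alternative. Over all 1125 values under alternatives, 73 lost the call and 0 changed sign. These 45 were the largest called changes without overlap, which favours calls that hold. Over all members, 12 of 35 rises and 14 of 21 falls from day 5 to day 9 held under every alternative other than the 2-fold threshold. From day 9 to day 13, 1 of 3 rises and 8 of 25 falls did. Over the whole period 32 of 49 and 31 of 44 did, and 75 of 98 in the F test. Without 1 library in turn, the members that rose numbered 6 to 26 from day 1 to day 5, 15 to 37 from day 5 to day 9, 1 to 4 from day 9 to day 13 and 37 to 52 over the whole period. Those that fell numbered 10 to 18, 14 to 24, 14 to 28 and 35 to 45, and the F test called 90 to 101. With a pseudocount of 0.1, 16 members rose from day 1 to day 5, and 15 did with the fat body libraries alone. In the last step 5 rose after quantile normalization, and 10 fell with the fat body libraries alone. The cause was not tested. The labels do not say whether libraries of the same replicate number came from the same flies. Over 28 pairs of groups the correlation of deviations ran from -0.15 to 0.15, with 1 pair over 0.1. Low correlations cannot show that the libraries were unpaired. With replicate number as a block, 21, 32, 3 and 49 members rose, 14, 20, 25 and 43 fell, and the F test called 95. The set held 75 genes at a ratio of 8, 96 when the lower fat body and higher ovary library were compared, and 115 to 213 under the other thresholds and scaling tried. Depth is unknown, so low values, such as ovary levels near 0, have no stated counting error.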
